A study of Homo sapiens with 18 samples.

Results

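The BRCA1 complexes were examined as 10 gene symbols, BRCA1, BARD1, BRIP1, RBBP8, PALB2, BRCA2, BABAM1, BABAM2, UIMC1 and BRCC3, chosen by name and all found among the 26668 symbols of the deposited RNA-seq table. RNA-seq was performed in 3 established human lines of pancreatic cancer, which were PANC-1, MIA PaCa-2 and PaTu 8988T, with 3 control and 3 shOFD1 libraries per line, 18 libraries in all. The shOFD1 cells carried a doxycycline-inducible (Tet-on) shRNA against OFD1, a protein of the centrosome and centriolar satellites, and were collected after 72 h of doxycycline. The control labels read shControl, WT and no treatment, whereas the methods describe the same Tet-on-shOFD1 cells given DMSO, so it was not settled whether the controls carried the OFD1 shRNA. The series text places controls at day 0 and knockdown cells at day 3, whereas the methods give DMSO or doxycycline for 72 h alike. The agent and, where they differed, the culture time and the cell stock cannot be told apart from the knockdown. All groups grew in DMEM with serum, and no label says that replicates came from separate cultures, so p-values measure only the spread between these libraries. Replicates 2 and 3 of both PaTu 8988T groups carry source names (PaTu 8989T and PaTu 8990T) that differ from their titles, and the titles were followed. The question was which subunits followed BRCA1 when OFD1 was knocked down.

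BRCA1 acts in DNA double-strand break repair by homologous recombination, and it works as a heterodimer with BARD1, which together form a ubiquitin ligase. The BRCT domains of BRCA1 bind one partner at a time: the A complex with UIMC1 (RAP80), ABRAXAS1, BABAM1 (MERIT40), BABAM2 (BRE) and the deubiquitinase BRCC3, the B complex with the helicase BRIP1 (FANCJ), and the C complex with the end-resection factor RBBP8 (CtIP). Through PALB2, BRCA1 also brings BRCA2 to resected DNA. Transcription of BRCA1 and of several recombination genes rises in S phase and is repressed in resting cells through E2F and CHR promoter elements.

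Promoter sequences are shown for BRCA1, the gene that fell in every line, for BRIP1, which fell with it in PANC-1, and for BABAM2, which rose in PANC-1 and MIA PaCa-2. Each run is the 250 bases before the start site, 5′ to 3′ on the strand of the gene, from RefSeq (GRCh38.p14). Capitals mark matches on either strand to the E2F-like word TTCCCGC, to its variants TTCGCGC, also TTGCCGC, and lastly TTGGCGC, or to the CHR word TTTGAA or its variant TTCGAA. The BRCA1 run is chr17:43125365-43125614 on the minus strand, the BRIP1 run is chr17:61863529-61863778 on the minus strand, and the BABAM2 run is chr2:27890479-27890728 on the plus strand.
BRCA1: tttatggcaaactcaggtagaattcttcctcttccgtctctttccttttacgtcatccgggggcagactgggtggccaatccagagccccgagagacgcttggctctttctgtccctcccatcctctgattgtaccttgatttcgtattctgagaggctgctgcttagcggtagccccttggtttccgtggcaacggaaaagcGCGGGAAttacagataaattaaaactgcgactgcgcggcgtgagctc
BRIP1: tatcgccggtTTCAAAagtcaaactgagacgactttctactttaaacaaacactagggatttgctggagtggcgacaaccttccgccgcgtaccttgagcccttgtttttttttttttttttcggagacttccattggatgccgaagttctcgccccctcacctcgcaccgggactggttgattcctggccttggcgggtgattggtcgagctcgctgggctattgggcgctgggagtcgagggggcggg
BABAM2: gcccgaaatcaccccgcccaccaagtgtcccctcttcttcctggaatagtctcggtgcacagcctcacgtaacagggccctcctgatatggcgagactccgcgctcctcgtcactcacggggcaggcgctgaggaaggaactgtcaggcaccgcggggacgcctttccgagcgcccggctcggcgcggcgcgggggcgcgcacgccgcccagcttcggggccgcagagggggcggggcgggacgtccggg
The word in the BRCA1 run lay 47 to 41 bases before the start site. The start of NBR2, a noncoding gene that runs the other way, is 193 bases from this BRCA1 start, and the same bases therefore lie in the NBR2 window. RefSeq lists a second BRCA1 start 44963 bases farther out, beside NBR1, and that window held no such word.

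All 10 members had a promoter entry, with 15 windows of 250 bases before to 50 after a start. An E2F-like word was found in 3 of these windows, those of BRCA1, BARD1 and BRIP1, against 12.9% of all 34943 promoter windows. In BARD1 and BRIP1 the word began 4 and 2 bases after the start, outside the printed runs. A CHR word was found in 1 window, that of BRIP1, against 16.4% of all windows. No word was found in the windows of RBBP8, PALB2, BRCA2, BABAM1, BABAM2, UIMC1 or BRCC3, which says only that these letters are not in those windows.

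The methods name 2 OFD1 shRNAs, and which of them the sequenced cells carried is not given in the sources used here. The 7-base match to bases 2 to 8 of the guide is ACTAGAA for shOFD1#1 and TAGTGGT for shOFD1#2. In the 3′ UTRs of the 10 members (GENCODE v29, GRCh38), BRCA1 and BRIP1 each held 1 match for shOFD1#1, and UIMC1 held 1 match for shOFD1#2. These sites, all that the members held, are shown with the match in capitals.
BRCA1: aaggaaaatgaaACTAGAAg
BRIP1: accaaacactagACTAGAAg
UIMC1: ttcattaagccaTAGTGGTc
The BRCA1 match lay in exon 24 at chr17:43044788-43044794 on the minus strand, the BRIP1 match in exon 20 at chr17:61682286-61682292 on the minus strand, and the UIMC1 match in exon 15 at chr5:176905211-176905217 on the minus strand. Of the 3′ UTRs of all 19038 genes searched, 8.7% held the first word and 6.3% the second. Whether any of these sites was bound was not tested. BRCA1 held no match for shOFD1#2. The paper reports lower BRCA1 protein in pancreatic cancer lines with each of its OFD1 shRNAs. It also reports that OFD1 made resistant to the siRNA restored BRCA1 after OFD1 siRNA.

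The deposited values are FPKM, in which the reads of a gene are divided by gene length and library size. Whole reads could be recovered from them, and the libraries held between 32384947 and 39788355 recovered reads. The members had from 316 reads (BRIP1) to 13598 reads (RBBP8) in a library. OFD1 itself, the gene targeted, fell in every line, by 1.07 on the log2 scale in PANC-1, 0.61 in MIA PaCa-2 and 1.10 in PaTu 8988T. In MIA PaCa-2 this call was lost when any library other than control replicate 2 was left out (adjusted p 0.0608 to 0.0899). Without control replicate 2, OFD1 fell there by 0.76 (adjusted p = 8.70e-05). One library, MIA PaCa-2 control replicate 2, stood apart, with a median absolute difference of 0.393 log2 units from the other MIA PaCa-2 controls, against 0.0510 to 0.0930 in the 15 libraries outside that group. Changes of members in MIA PaCa-2 are therefore given with and without it. The 2-fold counts, overlaps, ratios to BRCA1 and likeness to BRCA1 are given with all libraries only. Among markers of the cells, KRT8 and KRT18 were high in all lines, EPCAM and CDH1 were at or near 0 in MIA PaCa-2, and KRT19 was near 0 and CDH1 low in PaTu 8988T. Of 3 leukocyte markers, CD3E was at or near 0 in every line, CD68 was detected in every line, and PTPRC averaged 3.51 FPKM in MIA PaCa-2 controls and 6.0 in the shOFD1 libraries. The summed leukocyte markers ran from 49.3 to 67.3 FPKM in MIA PaCa-2 controls and from 73.2 to 77.0 after knockdown. CD68 alone changed there by 0.42 without passing the threshold (adjusted p = 0.0528), and by 0.58 without control replicate 2 (adjusted p = 6.32e-07). It fell in PANC-1 by 0.93 (adjusted p = 7.50e-07) and in PaTu 8988T by 0.35 (adjusted p = 0.00229). Of the mesenchymal markers, VIM fell from 1401 to 793.1 FPKM in PANC-1 and from 782.6 to 591.2 in PaTu 8988T and rose from 3512 to 4900.2 in MIA PaCa-2. CDH2 fell by 0.87 in PANC-1, was at 0 in MIA PaCa-2 and did not pass the threshold in PaTu 8988T (-0.14, adjusted p = 0.0702). ZEB1 rose by 0.78 in MIA PaCa-2, and by 0.58 without control replicate 2. That call was lost when any shOFD1 replicate was left out. In PANC-1 and PaTu 8988T the ZEB1 changes were -0.02 and -0.17 (adjusted p = 0.732 and 0.112). The part of these markers in the member results was not tested. The 3 endothelial and 3 fibroblast markers averaged under 1 FPKM in every line.

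BRCA1 mRNA fell in all 3 lines, which was true of no other member. BRIP1 and BRCA2 fell in PANC-1 and did not pass the threshold in the full comparisons of the other lines; the BRIP1 change in PANC-1 was lower than in either other line, although against PaTu 8988T (adjusted p = 0.0277) in 15 of 23 alternatives, whereas for BRCA2 it differed from MIA PaCa-2 (adjusted p = 0.0199) but not past the threshold from PaTu 8988T (adjusted p = 0.451). In PANC-1 BARD1 and BRCC3 fell near the threshold. BABAM2 moved against BRCA1 in PANC-1 and MIA PaCa-2 and fell slightly in PaTu 8988T. A gene was called at a Benjamini-Hochberg adjusted p below 0.05 by limma. By that rule, 5 members were lower, 2 higher and 3 not past the threshold in PANC-1, where 32.2% of genes tested were lower and 40.1% higher. In MIA PaCa-2, 2 were lower, 1 higher and 7 not past it, against 21.7% and 18.7% of genes. Without control replicate 2, the same line gave 5 lower and 2 higher, against 39.8% and 35.4% of genes. In PaTu 8988T, 2 were lower, 1 higher and 7 not past it, against 18.5% and 20.9% of genes. With the 2-fold threshold of the study added, 1 member was lower (BRCA1) and 0 were higher in PANC-1, where 4.84% of genes were lower and 1.75% higher by that rule. In MIA PaCa-2, 1 was lower (BRCA1) and 1 higher (BABAM2), against 3.68% and 4.07%. In PaTu 8988T, 1 was lower (BRCA1) and 0 higher, against 0.841% and 0.159%. The median log2 fold change of the members was -0.10 in PANC-1, 0.11 in MIA PaCa-2 and -0.02 in PaTu 8988T, beside 0.06, -0.03 and 0.03 over all genes tested. Without control replicate 2, the MIA PaCa-2 median was -0.09 for the members, beside -0.03 over all genes tested, so its sign depended on that library.

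**Figure D1:**
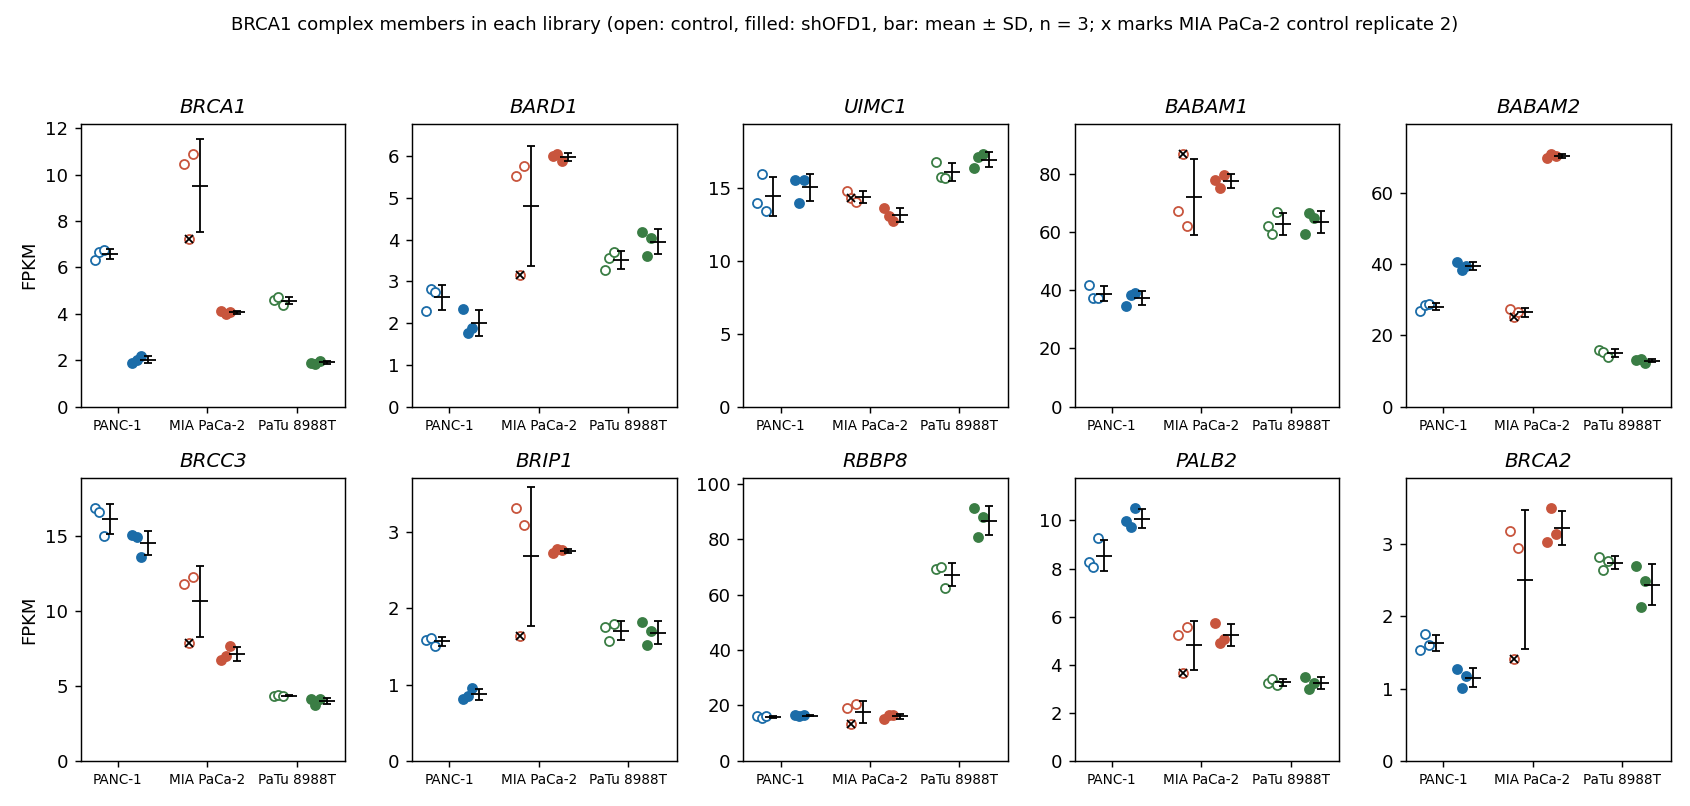
FPKM (vertical axes from 0) of the 10 members in each of the 18 libraries, grouped by line, with open circles for control and filled circles for shOFD1 libraries, and bars for the mean ± SD of 3 libraries; a cross marks MIA PaCa-2 control replicate 2. Within each line the BRCA1 values of the shOFD1 libraries lie below all controls, whereas BABAM2 rises to about 70.3 FPKM in MIA PaCa-2.

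In PANC-1, BRCA1 (chr17:43044295-43170245, minus strand, GRCh38) stood at 6.33, 6.68 and 6.75 FPKM in the controls and at 1.89, 2.0 and 2.18 in the shOFD1 libraries. In MIA PaCa-2 the controls held 10.4, 7.22 and 10.9 FPKM and the shOFD1 libraries 4.13, 4.01 and 4.08. In PaTu 8988T the controls held 4.59, 4.73 and 4.4 FPKM and the shOFD1 libraries 1.89, 1.86 and 1.97. Every shOFD1 library was below every control of its line, and the low MIA PaCa-2 control was replicate 2. The level after knockdown was 30.7% of control in PANC-1, 42.8% in MIA PaCa-2 and 41.7% in PaTu 8988T. The log2 fold change was -1.66 ± 0.08 (SE) in PANC-1, with an adjusted p of 4.03e-08. It was -1.18 ± 0.17 in MIA PaCa-2, where the adjusted p was 0.00237, and -1.22 ± 0.07 in PaTu 8988T, where it was 3.76e-06. Without control replicate 2, the MIA PaCa-2 change was -1.37 ± 0.05 (adjusted p = 9.59e-08). The adjusted p stayed below 0.05 in every alternative fit that tested BRCA1, 12 in MIA PaCa-2 and 11 in each of the other lines, where a minimum of 5 FPKM removed the gene. In these bulk libraries, fewer BRCA1-expressing cells and less BRCA1 RNA per cell cannot be told apart.

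NBR1 and NBR2, the neighbours whose starts lie beside the 2 BRCA1 starts, fell in no line in which they were tested. NBR1 (chr17:43170481-43211689, plus strand), an autophagy receptor gene, rose in every line, by 0.37 on the log2 scale in PANC-1, 0.75 in MIA PaCa-2 and 0.22 in PaTu 8988T (adjusted p = 5.07e-05, 0.00251 and 0.00233). NBR2 was at 2.01, 2.13 and 2.06 FPKM in MIA PaCa-2 controls and at 3.16, 2.97 and 3.67 in the shOFD1 libraries, a log2 fold change of 0.63 ± 0.12 (adjusted p = 0.00685). Without MIA PaCa-2 control replicate 2, NBR1 rose by 0.64 and NBR2 by 0.65. In PaTu 8988T the NBR2 groups overlapped and the change was 0.07 ± 0.12 (adjusted p = 0.666), and in PANC-1 NBR2 is listed at 0 in all libraries and was not tested.

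BARD1, the obligate partner of BRCA1, did not follow it across the lines. In PANC-1 the controls held 2.28, 2.82 and 2.75 FPKM and the shOFD1 libraries 2.35, 1.76 and 1.89. The groups overlapped through shOFD1 replicate 1 and control replicate 1. The log2 fold change was -0.38 ± 0.13 (adjusted p = 0.0227), and the call was lost without control replicate 2 or 3 or shOFD1 replicate 2 or 3 (adjusted p 0.0655 to 0.0812). In MIA PaCa-2, control replicates 1 and 3 held 5.53 and 5.76 FPKM, control replicate 2 held 3.15, and the shOFD1 libraries held 6.01, 6.05 and 5.88. All shOFD1 values lay above the controls, but 2 of the 3 controls were close to them. The change was 0.36 ± 0.23 (adjusted p = 0.252), and 0.08 ± 0.05 without control replicate 2 (adjusted p = 0.171). In PaTu 8988T, where controls ran from 3.29 to 3.70 FPKM and shOFD1 libraries from 3.61 to 4.19, the change was 0.16 ± 0.08 (adjusted p = 0.133).

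Within the A complex, UIMC1 and BABAM1 passed the threshold in none of the 3 full comparisons. UIMC1, the ubiquitin-binding subunit, lay at 13.4 to 15.9 FPKM in PANC-1, at 12.7 to 14.8 FPKM in MIA PaCa-2 and at 15.7 to 17.3 FPKM in PaTu 8988T, with log2 fold changes of 0.06 ± 0.07, -0.13 ± 0.08 and 0.07 ± 0.05 in PANC-1, MIA PaCa-2 and PaTu 8988T (adjusted p = 0.458, 0.238 and 0.243). BABAM1, which holds the complex together, had changes of -0.05 ± 0.06, 0.12 ± 0.13 and 0.02 ± 0.06 (adjusted p = 0.412, 0.484 and 0.805). Without MIA PaCa-2 control replicate 2, UIMC1 fell by 0.13 (adjusted p = 0.0305) and BABAM1 rose by 0.26 (adjusted p = 0.000357) in that line.

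BABAM2 (chr2:27889941-28338901, plus strand), the BRE subunit of the A complex, rose in MIA PaCa-2 and PANC-1. In MIA PaCa-2 it stood at 27.5, 25.2 and 26.7 FPKM in the controls and at 69.8, 70.9 and 70.3 in the shOFD1 libraries, a log2 fold change of 1.41 ± 0.07 (adjusted p = 0.000156). Control replicate 2 did not stand apart for this gene, and the change without it was 1.37 ± 0.03 (adjusted p = 5.85e-09). In PANC-1 the controls held 26.9, 28.7 and 28.7 FPKM and the shOFD1 libraries 40.7, 38.5 and 39.4, a change of 0.49 ± 0.04 (adjusted p = 1.58e-06). Both rises kept an adjusted p below 0.05 in all 12 alternative fits, but that in PANC-1 was below 2-fold. In PaTu 8988T the controls held 16, 15.2 and 13.9 FPKM and the shOFD1 libraries 13.1, 13.3 and 12.3. The groups did not overlap, and the change was -0.22 ± 0.06 (adjusted p = 0.0181). That call was lost without control replicate 1 or 2 or shOFD1 replicate 3 (adjusted p 0.0643 to 0.0749).

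BRCC3 (chrX:155071420-155123074, plus strand), the deubiquitinase of the A complex, was lower in PANC-1 and MIA PaCa-2, in both near the threshold. In MIA PaCa-2 the controls held 11.8, 7.89 and 12.3 FPKM and the shOFD1 libraries 6.72, 7.01 and 7.65. Replicates 1 and 3 of the control were well above the shOFD1 libraries, and replicate 2 was close to them. The log2 fold change was -0.55 ± 0.18 (adjusted p = 0.0480), and -0.75 ± 0.06 without control replicate 2 (adjusted p = 8.45e-06). Leaving out control replicate 1 or 3 or any shOFD1 replicate instead lost the call (adjusted p 0.102 to 0.149), as did the replicate block (0.0527), median scaling (0.0547), no filter (0.0821) and a minimum of 5 FPKM (0.0506), so BRCC3 passed in 3 of 12 alternative fits. In PANC-1 the controls ran from 15.0 to 16.9 FPKM and the shOFD1 libraries from 13.6 to 15.1, so the groups overlapped, with a change of -0.15 ± 0.06 (adjusted p = 0.0430). This call was lost without control replicate 1 or 2 or shOFD1 replicate 3 (adjusted p 0.123 to 0.156). In PaTu 8988T the change was -0.12 ± 0.07 (adjusted p = 0.173).

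BRIP1 (chr17:61681266-61863521, minus strand), the helicase of the B complex, fell in PANC-1. Its levels there were 1.59, 1.61 and 1.5 FPKM in the controls and 0.818, 0.849 and 0.958 in the shOFD1 libraries. The groups did not overlap, and the log2 fold change was -0.77 ± 0.13 (adjusted p = 0.000323), which kept an adjusted p below 0.05 in the 11 alternative fits that tested the gene and was less than a 2-fold fall. In MIA PaCa-2 the controls held 3.31, 1.64 and 3.09 FPKM and the shOFD1 libraries 2.72, 2.77 and 2.76. The shOFD1 values lay between control replicate 2 and the other controls, so the sign of the change depended on that library. It was 0.10 ± 0.26 with it (adjusted p = 0.786) and -0.21 ± 0.07 without it (adjusted p = 0.0267). In PaTu 8988T the groups overlapped, with a change of -0.02 ± 0.10 (adjusted p = 0.878).

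RBBP8 (chr18:22798261-23026488, plus strand), the resection factor of the C complex, rose in PaTu 8988T. The controls held 69.4, 69.9 and 62.6 FPKM and the shOFD1 libraries 91.1, 80.9 and 88.1, a log2 fold change of 0.37 ± 0.06 (adjusted p = 0.00102) with no overlap. The adjusted p stayed below 0.05 in all 12 alternative fits, and the rise was below 2-fold. In PANC-1 all 6 libraries lay between 15.6 and 16.4 FPKM, and the change was 0.03 ± 0.04 (adjusted p = 0.452). In MIA PaCa-2 the change was -0.11 ± 0.17 (adjusted p = 0.647), and -0.30 ± 0.05 without control replicate 2 (adjusted p = 0.000951).

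PALB2, which bridges BRCA1 and BRCA2, and BRCA2 itself, which acts in strand exchange, moved apart in PANC-1. PALB2 stood at 8.27, 8.07 and 9.27 FPKM in the controls and at 9.97, 9.74 and 10.5 in the shOFD1 libraries. Each shOFD1 value lay above all controls, and the log2 fold change was 0.24 ± 0.06 (adjusted p = 0.00673). BRCA2 (chr13:32315474-32400266, plus strand) stood at 1.54, 1.75 and 1.6 FPKM in the controls and at 1.27, 1.01 and 1.18 in the shOFD1 libraries, without overlap, and fell by 0.47 ± 0.13 on the log2 scale (adjusted p = 0.00757). In PaTu 8988T neither passed the threshold, with -0.01 ± 0.08 for PALB2 (adjusted p = 0.915) and -0.17 ± 0.10 for BRCA2 (adjusted p = 0.189). In MIA PaCa-2, PALB2 changed by 0.14 ± 0.18 (adjusted p = 0.567) and BRCA2 by 0.43 ± 0.30 (adjusted p = 0.284). Without control replicate 2 these values were -0.05 ± 0.08 (adjusted p = 0.585) and 0.07 ± 0.08 (adjusted p = 0.454).

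**Figure D2:**
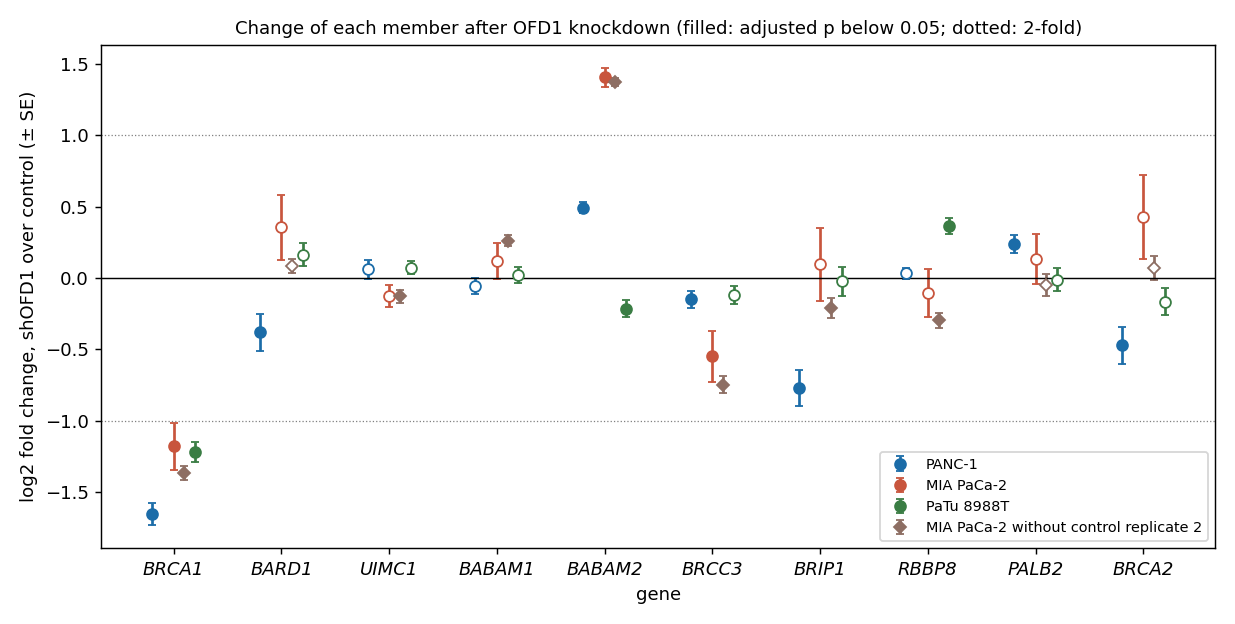
Log2 fold change of each member, shOFD1 over control, with limma's standard error, in PANC-1, MIA PaCa-2 and PaTu 8988T (circles) and in MIA PaCa-2 without control replicate 2 (diamonds); filled symbols passed an adjusted p of 0.05 and dotted lines mark 2-fold. BRCA1 lies below the lower dotted line in every line, and BABAM2 spans from -0.22 in PaTu 8988T to 1.41 in MIA PaCa-2.

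The control and shOFD1 libraries did not overlap for 5 of the 10 members in PANC-1, 5 in MIA PaCa-2 and 4 in PaTu 8988T. Over all genes tested this was the case for 75%, 59.3% and 51.9%. Relative to BRCA1, each of the other 9 members was higher after knockdown in each line, without overlap of the libraries in any of the 27 gene and line pairs. The same was true of 98% of all other genes tested in PANC-1, 84.7% in MIA PaCa-2 and 98.7% in PaTu 8988T, so the count restates the fall of BRCA1. Every exact two-sided permutation test gave p = 0.1, the smallest that 3 against 3 libraries allow. Since BRCA1 is in all 27 ratios, they are not independent. BARD1 stood at 0.397 ± 0.032 (SD) of the BRCA1 level in PANC-1 controls and at 0.996 ± 0.217 after knockdown, and these ratios were 0.498 ± 0.053 and 1.47 ± 0.04 for MIA PaCa-2. PaTu 8988T had 0.770 ± 0.065 before and 2.07 ± 0.13 after knockdown. The smallest shift was that of BRCC3 in MIA PaCa-2, 0.63 on the log2 scale, followed by BRIP1 in PANC-1 with 0.88. The largest was that of BABAM2 in MIA PaCa-2, 2.59, where it went from 2.86 ± 0.56 to 17.3 ± 0.4 times the BRCA1 level.

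**Figure D3:**
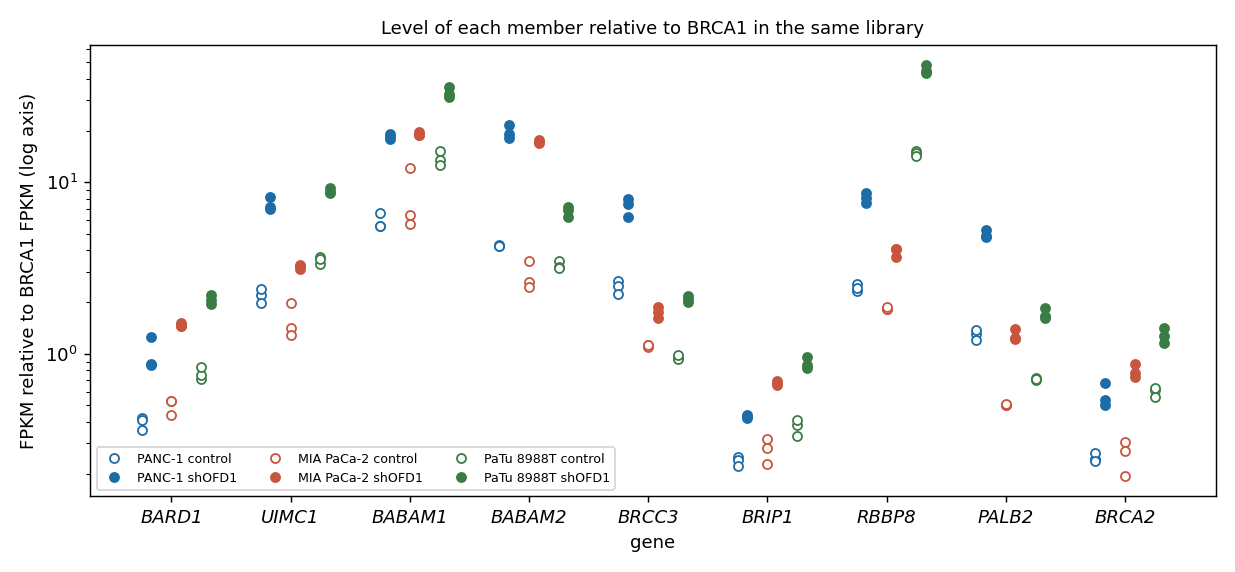
FPKM of each member divided by BRCA1 FPKM in the same library (log axis), with open circles for control and filled circles for shOFD1 libraries of the 3 lines. Each filled group lies above its open group, and BARD1 goes from below the BRCA1 level in the controls to 2.07 times that level in PaTu 8988T.

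Whether a member changed by different amounts in 2 lines was tested as an interaction over all 18 libraries. Between PANC-1 and MIA PaCa-2, 5 of the 10 members differed, against 43.4% of genes, and without MIA PaCa-2 control replicate 2 it was 9 of the 10, against 64.3%. Between PANC-1 and PaTu 8988T, 3 differed, against 35.8%, and 6 without that library, whose spread enters the pooled estimate, against 59%. Between MIA PaCa-2 and PaTu 8988T, 3 differed, against 52.9%, and 5 without it, against 70.9%. BABAM2 differed in every pair under all alternatives, by 1.62 ± 0.08 on the log2 scale between MIA PaCa-2 and PaTu 8988T (adjusted p = 2.64e-10). The BRIP1 change in PANC-1 was lower than that in MIA PaCa-2 by 0.87 ± 0.25 (adjusted p = 0.0103), again under all alternatives. The fall of BRCA1 was greater in PANC-1 than in MIA PaCa-2, with a difference of -0.47 ± 0.16 (adjusted p = 0.0261), and than in PaTu 8988T, with -0.44 ± 0.16 (adjusted p = 0.0448), and those calls held in 18 and 7 of 23 alternatives. Between MIA PaCa-2 and PaTu 8988T the BRCA1 changes differed by 0.04 ± 0.16 (adjusted p = 0.864).

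Other genes of the pathway were read from the same fits. Over all genes tested, 32.2% were lower and 40.1% higher in PANC-1, and 18.5% and 20.9% in PaTu 8988T. In MIA PaCa-2 these shares were 21.7% and 18.7%, and 39.8% and 35.4% without control replicate 2. They stand beside the counts of every list below. Of 11 further partners of the complexes, 4 were lower and 3 higher in PANC-1, 3 and 1 in MIA PaCa-2 (9 and 2 without control replicate 2), and 1 and 2 in PaTu 8988T. MRE11 and NBN, of the MRN complex that acts with RBBP8, fell in PANC-1 by 0.37 and 0.32 (adjusted p = 0.000458 and 0.000192). MORF4L1 (MRG15), a PALB2-binding chromatin protein, rose in all 3 lines, by 0.41, 0.25 and 0.23 (adjusted p = 8.71e-08, 0.0433 and 0.00195). Its MIA PaCa-2 call was lost when any library other than control replicate 2 was left out (adjusted p up to 0.150), and without that replicate it rose by 0.18. KEAP1, another partner, fell by 0.40 in PANC-1 and 1.28 in MIA PaCa-2 (adjusted p = 0.000534 and 0.00238). Both calls were kept with any 1 library left out. In MIA PaCa-2 without control replicate 2 the KEAP1 fall was 1.07, and in PaTu 8988T its change was 0.05 (adjusted p = 0.509).

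Of 22 other recombination genes, 21 were tested in each line. In PANC-1, 12 were lower and 3 higher, among them the helicase BLM (-1.23 ± 0.08), FANCD2 (-1.06 ± 0.08) and its partner FANCI (-0.79 ± 0.05). In MIA PaCa-2, 3 were lower and 1 higher, and 14 and 3 without control replicate 2. BLM fell there by 0.58 (adjusted p = 0.0303), a call lost when any library other than control replicate 2 was left out. FANCD2 and FANCI changed by -0.24 and -0.06 in that line (adjusted p = 0.0772 and 0.651). Without control replicate 2 the 3 changes were -0.76, -0.26 and -0.14 (adjusted p = 1.92e-05, 0.00388 and 0.0373). In PaTu 8988T, 1 was lower and 5 higher, and FANCI rose there by 0.13 (adjusted p = 0.0384), a call kept in 1 of 6 fits that each left out 1 library. The 5 became 2 without control replicate 1 or 3 or shOFD1 replicate 1 or 3, and 3 without control replicate 2. BLM and FANCD2 did not pass the threshold in PaTu 8988T, with -0.03 and -0.14 (adjusted p = 0.788 and 0.0697). Among genes of chromatin ubiquitin signalling and end protection, 6 of 11 were lower in PANC-1, 5 of 10 in MIA PaCa-2 and 3 of 10 in PaTu 8988T, with 2, 2 and 1 higher. In MIA PaCa-2, 6 were lower and 3 higher without control replicate 2. The 3 lower in PaTu 8988T became 1 when any control replicate was left out. H2AX, the histone variant phosphorylated at breaks, fell by 1.57 in PANC-1 and 2.80 in MIA PaCa-2, and its fall of 0.16 in PaTu 8988T (adjusted p = 0.0329) was kept in 1 of 6 fits that each left out 1 library. The shieldin subunit gene SHLD2 fell by 1.46 in PANC-1 and 1.38 in MIA PaCa-2. PAXIP1 fell in all lines, by 0.68, 1.01 and 0.40, and RIF1, which opposes resection, fell by 1.06 in PANC-1. In PaTu 8988T RIF1 fell by 0.24 (adjusted p = 0.0492), a call kept in 2 of 6 fits that each left out 1 library. Its change in MIA PaCa-2 was -0.12 (adjusted p = 0.790), and -0.52 without control replicate 2 (adjusted p = 2.43e-05). Without control replicate 2, the MIA PaCa-2 falls were 2.59 for H2AX, 1.59 for SHLD2 and 1.07 for PAXIP1.

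Markers of cycling cells fell in 2 of the 3 lines. Of 12 such genes, 12 were lower in PANC-1, with a median log2 fold change of -1.01, and 11 were lower in MIA PaCa-2, with a median of -0.74 (12 and -0.75 without control replicate 2). In PaTu 8988T, 0 were lower and 6 higher, with a median of 0.15. Their summed level ran from 466.9 to 480.6 FPKM in PANC-1 controls and from 219.8 to 225.7 after knockdown. MIA PaCa-2 had sums of 1217 to 1299.8 before and 747.4 to 751.3 after knockdown, and PaTu 8988T 868.3 to 883.6 before and 971.8 to 988.5 after. TOP2A, RRM2 and MKI67 fell in PANC-1 by 1.27, 1.97 and 1.25, and in PaTu 8988T RRM2 and TYMS rose by 0.27 and 0.18. TOP2A and MKI67 did not pass the threshold in PaTu 8988T, with -0.08 and -0.03 (adjusted p = 0.317 and 0.705). BRCA1 fell in all 3 lines, and the part of cell cycling in the changes of any line was not tested.

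Of 9082 other genes tested in all lines, the 5 whose 3 log2 fold changes lay nearest to those of BRCA1 by Euclidean distance were XYLT2, NLN, ADCY7, COL6A1 and KREMEN2. XYLT2, a xylosyltransferase, was nearest at a distance of 0.283, with changes of -1.75, -1.18 and -0.95 in PANC-1, MIA PaCa-2 and PaTu 8988T. The nearest members were BRIP1 and BRCC3, at places 1602 and 1644, and the farthest was BABAM2 at place 8969. BRCA2, UIMC1, BABAM1, BARD1, RBBP8 and PALB2 lay between, at places 3219 to 6000. Likeness here rests on 3 values per gene, and it describes these libraries only.

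In the controls, the levels per gene length put BABAM1 highest in PANC-1 (38.8 ± 2.6 FPKM) and MIA PaCa-2 (72.1 ± 13), followed by BABAM2. In PaTu 8988T, RBBP8 (67.3 ± 4.1) and BABAM1 (62.7 ± 3.8) were highest and overlapped. BRCA2 and BRIP1 were lowest in each line, at 1.63 ± 0.11 and 1.57 ± 0.06 FPKM in PANC-1, while MIA PaCa-2 had 2.51 ± 0.96 and 2.68 ± 0.91, and PaTu 8988T 2.74 ± 0.09 and 1.71 ± 0.12. Their libraries overlapped in PANC-1 and MIA PaCa-2 but not in PaTu 8988T. BRCA1 was the seventh of the 10 in PANC-1, the sixth in MIA PaCa-2 and the fifth in PaTu 8988T. In MIA PaCa-2 and PaTu 8988T its libraries overlapped those of BRCC3. FPKM levels were not tested between lines. The gene lengths implied by FPKM and recovered reads in MIA PaCa-2 were within 1% of those in PaTu 8988T for 99.9% of 10342 genes, but within 1% of those in PANC-1 for 67% of 10167, and in the latter pair they differed for 3 of the 10 members.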

How the data were processed

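The authors deposited 1 table of FPKM values for 26668 gene symbols in 18 libraries, made by HISAT2 alignment and counting with HTSeq-count. The alignment build and tool versions used for this table were not settled, since the labels name hg38 together with the mouse builds mm10 and GRCm38. The labels name RNeasy extraction and SMARTer libraries, the methods TRIzol and VAHTS. Whole reads were recovered from the FPKM steps of every gene above 0 (tolerance 0.01), multiplied where another line showed a lost common divisor (702, 349 and 492 genes in MIA PaCa-2, PANC-1 and PaTu 8988T), and used for depth and gene length only. In each line, genes averaging 1 FPKM or more in its 6 libraries were kept, and log2(FPKM + 0.1) was tested with limma 3.58.1 (lmFit, eBayes with trend; R 4.3.3), shOFD1 against control, with Benjamini-Hochberg adjustment per line. Fold changes on this scale understate those of low genes. Interactions used 6 groups over all libraries. Ratios to BRCA1 were compared by exact permutation. The fits were tested on simulated data. Alternatives were pseudocounts of 1 and 0.01, no filter, a minimum of 5, median scaling, a replicate block, the 2-fold threshold and leaving out each library. The members and lists were chosen with earlier results of these data known. Named genes were the members, OFD1, NBR1 and NBR2, up to 4 genes per list with the smallest adjusted p, and the 5 genes nearest to BRCA1. Some listed genes are not reported here and were left out of the list counts and sums. The study's differential test on counts was not repeated, since FPKM were deposited.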

Additional observations from a re-analysis of the deposited data

Results flagged for a closer look

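The change after OFD1 knockdown differed between lines past an adjusted p of 0.05 (limma interaction) for these members, each given as the log2 fold change in the first line minus that in the second. PANC-1 minus MIA PaCa-2 was -0.475 for BRCA1, -0.736 for BARD1, -0.872 for BRIP1, -0.900 for BRCA2 and -0.915 for BABAM2 (adjusted p = 0.0261, 0.0224, 0.0103, 0.0199 and 3.39e-07). In the same order, these were -0.289, -0.463, -0.565, -0.544 and -0.880 without MIA PaCa-2 control replicate 2. PANC-1 minus PaTu 8988T was -0.438 for BRCA1, -0.752 for BRIP1 and 0.709 for BABAM2 (adjusted p = 0.0448, 0.0277 and 4.44e-06). MIA PaCa-2 minus PaTu 8988T was -0.471 for RBBP8, 1.62 for BABAM2 and -0.429 for BRCC3 (adjusted p = 0.0211, 2.64e-10 and 0.0475), and -0.664, 1.59 and -0.630 without that library. BRCC3 in this pair passed in 6 of 23 alternatives.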

How the results depend on the processing

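The BRCA1 fall in every line, the BRIP1 and BRCA2 falls in PANC-1, the BABAM2 rise in PANC-1 and MIA PaCa-2, the RBBP8 rise in PaTu 8988T and the PALB2 rise in PANC-1 kept their direction and their side of the threshold under all alternatives that tested them, the added 2-fold threshold apart. The 2-fold threshold left 1 lower and 0 higher member in PANC-1 and PaTu 8988T, and 1 lower in MIA PaCa-2. Without the low filter, lower members numbered 3 in PANC-1, 1 in MIA PaCa-2 and 1 in PaTu 8988T, and OFD1 in MIA PaCa-2 (-0.605) missed the threshold. At a minimum of 5 FPKM fewer genes were tested, and 1 member was lower in each line (BRCC3 in PANC-1, BRCA1 in MIA PaCa-2 and BABAM2 in PaTu 8988T), and 1 differed between PANC-1 and MIA PaCa-2 and 1 between PANC-1 and PaTu 8988T. Lower members in MIA PaCa-2 numbered 1 with median scaling, and the cause was not tested. Between libraries of the same replicate number, the correlation of deviations ran from -0.111 to 0.130. Between different numbers it ran from -0.231 to 0.226. Not every library correlated best with its own number, and the main fits did not treat the numbers as pairs. With the replicate block, MIA PaCa-2 had 1 lower member. The member lost there, as with no filter, a minimum of 5 FPKM and median scaling, was BRCC3. Signs reversed for RBBP8 in PANC-1 (-0.0172) and BABAM1 in PaTu 8988T (-0.00194) with median scaling, and for the BRCA1 difference between MIA PaCa-2 and PaTu 8988T (-0.0944) with a pseudocount of 1.

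Leaving out 1 library at a time, the lower members ranged from 3 to 5 in PANC-1, 1 to 5 in MIA PaCa-2 and 1 to 2 in PaTu 8988T, and the higher ones from 1 to 2 in MIA PaCa-2 and 1 to 2 in PaTu 8988T. The highest MIA PaCa-2 counts were those without control replicate 2. There 39.8% of all genes tested were lower and 35.4% higher, against 21.7% and 18.7% with it. Shares over all genes under the other alternatives are not given here. Members that differed ranged from 3 to 9 (PANC-1, MIA PaCa-2), 1 to 6 (PANC-1, PaTu 8988T) and 1 to 5 (MIA PaCa-2, PaTu 8988T). Changes spanned -0.757 to -0.517 for OFD1, -0.209 to 0.275 for BRIP1, -0.298 to 0.0163 for RBBP8 and -0.0481 to 0.248 for PALB2 in MIA PaCa-2, -0.0872 to 0.000454 for BABAM1 in PANC-1, and -0.0784 to 0.0422 for BRIP1, -0.0662 to 0.0448 for PALB2, -0.0200 to 0.0679 for BABAM1 and -0.0239 to 0.185 for NBR2 in PaTu 8988T. Differences between lines spanned -0.0103 to 0.286 for PALB2 (PANC-1 minus MIA PaCa-2), -0.0810 to 0.0178 for BRCC3 and -0.0636 to 0.0600 for UIMC1 (PANC-1 minus PaTu 8988T), and -0.0797 to 0.345 for BARD1, -0.148 to 0.144 for BRCA1, -0.187 to 0.298 for BRIP1 and -0.0356 to 0.260 for PALB2 (MIA PaCa-2 minus PaTu 8988T). Of 439 gene changes under alternatives, 393 kept direction and side of the threshold, as did 623 of 702 differences between lines.

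Reads shared with BRCA1P1, a partial pseudogene copy of BRCA1, could not be separated. With 3 libraries a group, 1 library can decide a call, as shown for MIA PaCa-2.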
